A study of Mus musculus with 2 samples.

Results

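The 30 microRNA genes described here belong to 14 families in which the same mature microRNA is encoded at several places in the mouse genome. They were chosen by name, as the genes numbered -1, -2 or -3 of let-7a, let-7c, let-7f, miR-9, miR-124, miR-128, miR-194, miR-7a, miR-138, miR-218, miR-219a, miR-365, miR-135a and miR-129. Each name was matched to 1 row of a table of 2202 annotated microRNA genes, and 12 of the families had 2 loci and 2 had 3. The study sequenced small RNA, with inserts under 30 nt, from the gastrocnemius (a muscle of the calf) of male mice 4 days after birth. The strain was B6CASTF1/J, a first-generation hybrid of C57BL/6 and CAST, and the labels name no treatment or other allele. They form a single group of 2 libraries, replicate 1 from animal 3 and replicate 2 from animal 4, so that every comparison is between those 2 libraries and not between conditions.

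A microRNA is cut from a hairpin-shaped precursor, which can release a mature strand of about the same length from its 5′ arm and another from its 3′ arm. The mature strand guides the silencing complex to messenger RNAs through its seed, bases 2 to 8, so genes at different places that release the same strand act on the same targets. Several of these families are textbook microRNAs of the nervous system. miR-124 and miR-9 are known from neurons and their progenitors, miR-219a from oligodendrocytes, miR-138 from synapses and miR-218 from motor neurons, whereas let-7 is widespread and rises as tissues differentiate.

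A short read that comes from a shared strand fits several loci equally well. In these tables multimapping reads are summed for each library on a line of their own, which the files do not split by gene. That line held 3039284 of 8522350 reads (35.7%) in replicate 1 and 3266711 of 7240126 (45.1%) in replicate 2. The reads credited to microRNA genes on the sense strand numbered 4458853 and 3073086, so the multimapping reads came to 0.682 and 1.06 times the credited ones. Levels are given as CPM, counted sense reads scaled to 1000000 credited reads, and leave the multimapping line out.

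The counts of Mir206 and Mir208a in replicate 2 went against its label as gastrocnemius. Reads of Mir206, a microRNA restricted to skeletal muscle, numbered 652657 in replicate 1 and 101 in replicate 2, and those of Mir208a, a microRNA of heart muscle, 59 and 29718. The 9 genes listed as skeletal muscle markers summed to 14.7% and 0.479% of credited reads, and Mir206 alone held 14.6% and 0.00329%. Of 8 tested, 3 were higher and 3 lower in replicate 2, against 17.6% and 36.1% of all tested genes. The test is described with the let-7 genes. The higher ones were Mir208b (1068 and 4340 reads), Mir499 (1953 and 8633) and Mir486 (456 and 1468). Whether the reads of Mir208b, Mir499 and Mir486 came from skeletal muscle or from another tissue or cell type was not tested. The lower ones were Mir206, Mir133b (427 and 10) and Mir133a-1 (34 and 16). On this list Mir1a-1, Mir1a-2, Mir133a-1 and Mir133a-2 are numbered loci as well. Their counts and the sum of the list leave out any of their reads set aside as multimapping. Of the other lists, 2 of 2 erythroid genes and 3 of 5 leukocyte genes were higher and 1 leukocyte gene lower, with shares of 0.0220% and 0.0979% and of 0.0793% and 0.429%. Of 3 tested fibroblast genes 3 were lower, with shares of 0.591% and 0.281%. Among these, Mir199a-2 and Mir199b have every listed arm in common with another hairpin, so their counts have the same limit. The endothelial gene (2.54% and 6.62%) and both smooth muscle genes (2.17% and 4.90%) did not pass with library sizes scaled by TMM (trimmed mean of M values). Under DESeq2 size factors the lower leukocyte call was lost, and the endothelial gene and 1 smooth muscle gene passed as higher. The skeletal muscle list then had 4 higher and 2 lower genes, with Mir1a-2 gained as higher and Mir133a-1 lost. Replicate 2 therefore stands for the library labelled so, its tissue is in doubt, and each ratio compares libraries that may differ in tissue. The part that tissue content has in any difference was not tested. In tissue libraries fewer cells of a type and less RNA per cell cannot be told apart.

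The shared strands carry the identity of these genes, and RefSeq (GRCm38.p6) lists 14 of them for 13 families. Hairpin sequences were matched for 27 genes, all with the coordinates of the annotation used for counting, and not for Mir124a-1, Mir124a-2 and Mir124a-3. The strands are shown 5′ to 3′ with the seed in capitals. The 3 let-7 strands have the same seed, which 11 listed mature forms carry, and the seed of miR-7a-5p is also that of miR-7b-5p.
mmu-let-7a-5p: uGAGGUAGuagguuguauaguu
mmu-let-7c-5p: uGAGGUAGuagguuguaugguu
mmu-let-7f-5p: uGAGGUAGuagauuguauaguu
mmu-miR-9-5p: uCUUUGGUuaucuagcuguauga
mmu-miR-9-3p: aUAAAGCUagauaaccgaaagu
mmu-miR-128-3p: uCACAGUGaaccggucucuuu
mmu-miR-194-5p: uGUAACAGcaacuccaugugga
mmu-miR-7a-5p: uGGAAGACuagugauuuuguugu
mmu-miR-138-5p: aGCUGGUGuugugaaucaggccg
mmu-miR-218-5p: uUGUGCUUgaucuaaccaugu
mmu-miR-219a-5p: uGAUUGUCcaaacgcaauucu
mmu-miR-365-3p: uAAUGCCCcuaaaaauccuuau
mmu-miR-135a-5p: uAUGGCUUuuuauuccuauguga
mmu-miR-129-5p: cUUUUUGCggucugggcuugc

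In 20 of the 27 genes the other arm of the hairpin was found whole in no other listed hairpin on the same strand. Reads of that whole arm thus fit no other listed hairpin on that strand. Shorter reads may fit elsewhere, and the rest of the genome was not searched. In 5 genes both arms were shared, namely the 3 Mir9 genes, Mirlet7a-1 and Mirlet7c-2, and Mir129-1 and Mir219a-2 had a single listed arm, which was shared. Mirlet7a-1 and Mirlet7c-2 belong to different families but release the same 3′ strand as well.
mmu-let-7a-1-3p: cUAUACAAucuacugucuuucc
mmu-let-7c-2-3p: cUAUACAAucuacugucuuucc

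Counted levels of the 30 genes differed widely, and most were low. In replicate 1, 22 genes had at least 1 read and 14 had at least 10, and in replicate 2 these numbers were 23 and 18. At least 10 reads in each library were reached by 13 of the 30 genes (43.3%), against 13.6% of all annotated microRNA genes. Together the 30 genes held 16887 reads in replicate 1, a share of 0.379% (95% exact interval 0.373 to 0.384%), and 15656 in replicate 2, a share of 0.509% (0.502 to 0.517%). Mirlet7f-2 alone held 48.9% of those reads in replicate 1 and 68.1% in replicate 2, and without it the shares were 0.194% and 0.162%, in the other order. Per read counted on the 30 genes there were 180.0 multimapping reads in replicate 1 and 209 in replicate 2, from all sources.

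**Figure D1:**
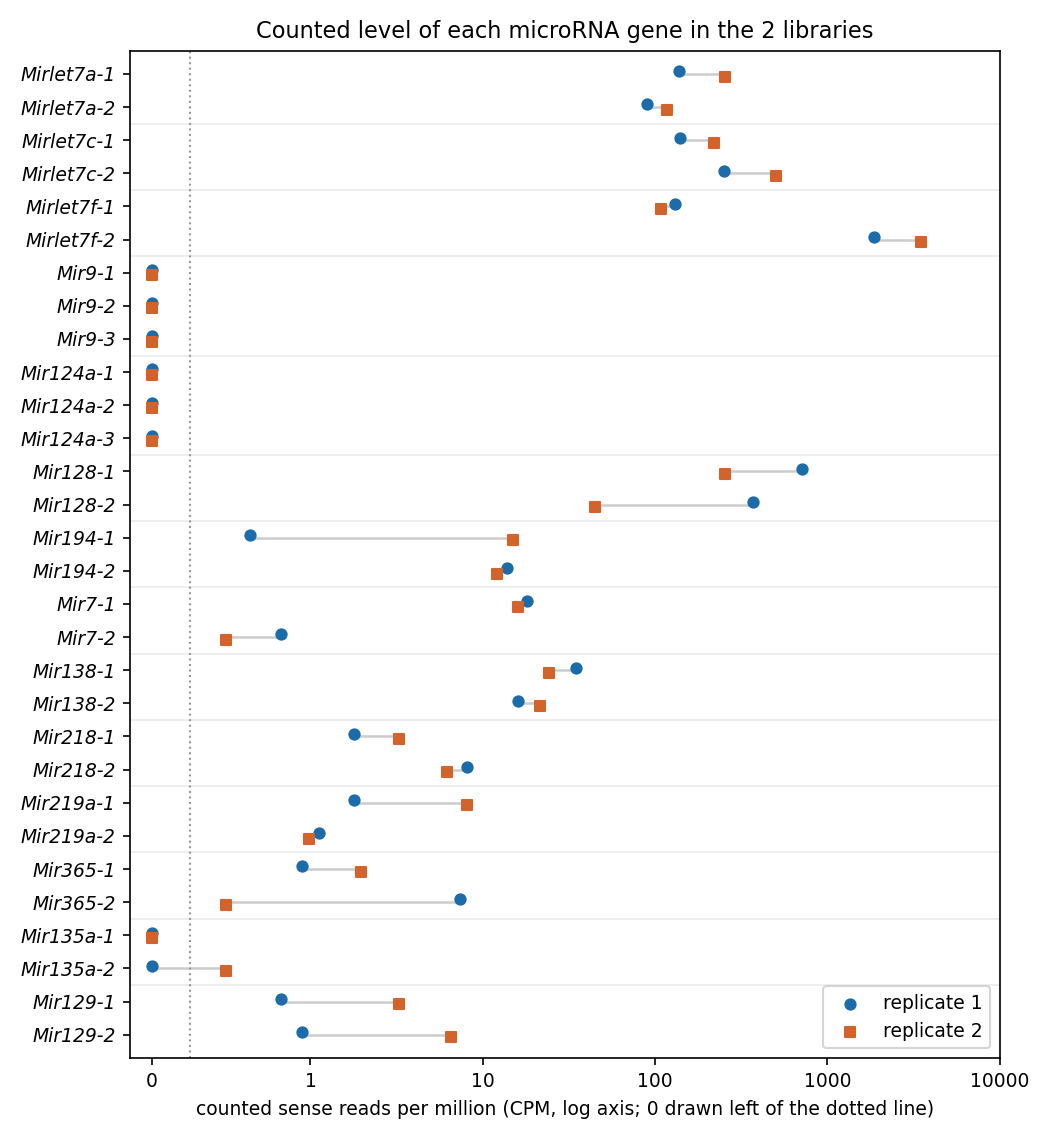
Counted level of each of the 30 genes, in CPM on a log axis, in replicate 1 (circles) and replicate 2 (squares), with lines between families and genes at 0 drawn left of the dotted line. Mirlet7f-2 lies highest in both libraries, and 7 genes, all Mir9 and Mir124a genes among them, are at 0 in both libraries.

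No read was counted for any Mir9 or Mir124a gene in either library. The count was also 0 in both libraries for Mir135a-1, so 7 of the 30 genes (23.3%) had none, against 67.3% of all annotated genes. A count of 0 allows a level of up to 0.673 CPM in replicate 1 and 0.976 CPM in replicate 2, for reads that can be placed and for counting error only. For miR-9 neither arm tells the 3 loci apart. All 3 lie on the plus strand of mm10. Mir9-1 lies in an intron of the noncoding gene Gm3764 (chromosome 3, 88215598 to 88215686), Mir9-2 in an exon of C130071C03Rik (chromosome 13, 83738814 to 83738885) and Mir9-3 in an intron of Mir9-3hg (chromosome 7, 79505264 to 79505353). The hairpins are shown because both strands released from them, in capitals, are the same at every locus. The zeros therefore cannot be read as absence of miR-9, and the same holds for reads confined to a shared strand in every other family here.
Mir9-1: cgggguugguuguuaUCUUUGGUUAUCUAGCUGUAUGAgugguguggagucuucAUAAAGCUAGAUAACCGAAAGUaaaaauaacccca
Mir9-2: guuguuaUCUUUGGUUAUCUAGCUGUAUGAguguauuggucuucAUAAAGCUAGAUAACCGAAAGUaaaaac
Mir9-3: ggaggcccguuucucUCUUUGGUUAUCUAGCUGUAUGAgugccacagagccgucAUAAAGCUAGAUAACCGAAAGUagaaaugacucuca

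The identity of the Mir9 loci went on beyond the mature strands. The 3 hairpins shared 3 more bases after the 3′ end of miR-9-5p, and Mir9-1 and Mir9-2 shared 5 after that of miR-9-3p and a longest common stretch of 33 bases. In the other families the longest stretch common to a pair of hairpins was 22 to 27 bases. Mir9-3 shared 26 bases with each of the other Mir9 hairpins, which is within that range. The miR-129 hairpins also shared 3 bases after their shared strand. Mir124a-1 (chromosome 14, 64590657 to 64590741), Mir124a-2 (chromosome 3, 17795662 to 17795770) and Mir124a-3 (chromosome 2, 180894040 to 180894107) each lie in an exon of a noncoding host gene.

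Of the 954 genes of the table with a RefSeq hairpin and a listed mature strand, 861 had no shared arm among the strands considered. For the 27 multi-locus genes described here these were all listed strands found in the hairpin. For the other genes they were only strands listed under their own name, so a shared strand listed under another gene alone was missed. The highest counts were found in the class with no shared arm, which is also by far the largest. The 954 genes are 43.3% of the annotated genes, too few for a statement on the annotation as a whole. Among 861 genes with no shared arm, 221 (25.7%) had at least 10 reads in each library, and 72 (8.36%) reached 1000 CPM in replicate 1 and 56 (6.50%) in replicate 2. Among 38 genes with every listed arm shared, 7 of them multi-locus genes described here, 5 (13.2%) had at least 10 reads in each library and 0 reached 1000 CPM in either. The highest of these 38 in both libraries was a let-7 gene, Mirlet7c-2, at 251 and 502 CPM. Of the 55 genes with a shared arm and an arm of their own, 20 of them described here, 29 (52.7%) had at least 10 reads in each library and 2 and 3 reached 1000 CPM. Mirlet7f-2 was the highest of these 55 in both libraries. Medians over the genes with reads in a library ran the other way. They were 3.03 and 4.56 CPM with no shared arm and 9.87 and 11.4 CPM with every listed arm shared. With a shared arm and an own arm they were 16.6 and 17.6 CPM. Genes without a read in either library made up 37.7%, 76.3% and 14.5% of these 3 classes. All 93 genes with a shared arm held 0.747% of credited reads in replicate 1 and 1.10% in replicate 2. These are counts over genes of the same 2 libraries, with no test.

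**Figure D2:**
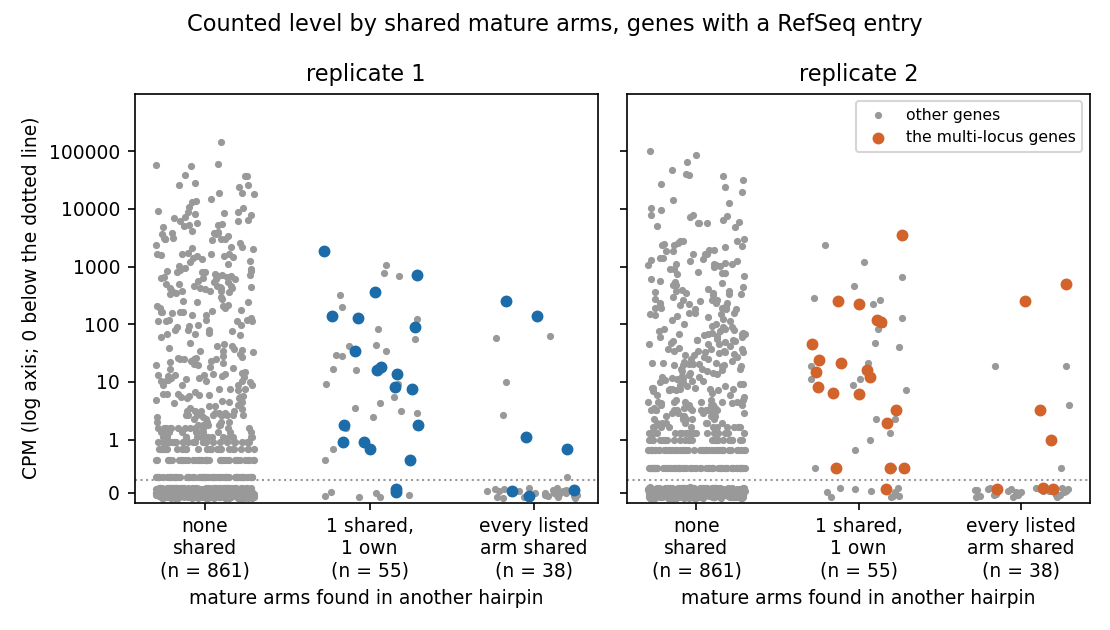
Counted level (CPM, log axis, 0 below the dotted line) of 954 genes in replicate 1 (left) and replicate 2 (right), by whether their mature arms are found in another listed hairpin. Coloured points are the 27 multi-locus genes with a sequence and grey points the other genes. No gene with every listed arm shared lies above 251 CPM in replicate 1 or 502 CPM in replicate 2.

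Mirlet7f-2 had the highest counted level of the 30 in both libraries. Mirlet7f-2, in an intron of the ubiquitin ligase gene Huwe1 (chromosome X, 151912346 to 151912428, plus strand), had 8256 reads (1852 CPM) in replicate 1 and 10667 (3471 CPM) in replicate 2. Its partner Mirlet7f-1, in an exon of the noncoding gene 6720427I07Rik (chromosome 13, 48537829 to 48537917, minus strand), had 580 reads (130.1 CPM) and 333 (108 CPM). The same strand, let-7f-5p, is encoded at both, yet Mirlet7f-2 had 14.2 times the reads of Mirlet7f-1 in replicate 1 and 32.0 times in replicate 2. The hairpins are shown because they differ from the base right after the shared strand, which is in capitals.
Mirlet7f-1: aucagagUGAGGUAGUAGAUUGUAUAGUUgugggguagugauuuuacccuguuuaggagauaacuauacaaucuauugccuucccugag
Mirlet7f-2: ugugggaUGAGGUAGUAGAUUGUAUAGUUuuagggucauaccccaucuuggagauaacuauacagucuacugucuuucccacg

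Mirlet7c-2 (chromosome 15, 85706603 to 85706697, in an exon of Lncppara) had 1119 reads in replicate 1 and 1544 in replicate 2. Mirlet7c-1 (chromosome 16, 77599657 to 77599750, in an intron of Mir99ahg) had 619 and 677. Mirlet7a-1, 261 bases from Mirlet7f-1 on chromosome 13, had 617 and 787, and Mirlet7a-2 (chromosome 9, 41536716 to 41536811) had 400 and 360. In both libraries the order was Mirlet7c-2 over Mirlet7c-1 and Mirlet7a-1 over Mirlet7a-2. The genes with both arms shared thus stood above their partners, and the tables do not tell from which part of a hairpin the counted reads came. Loci of let-7a and of let-7c differ from the second base after the 5p strand.

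None of the 6 let-7 genes passed the threshold between the libraries, which asks for an adjusted p under 0.05 in an exact binomial test with Benjamini-Hochberg adjustment and at least a 2-fold ratio; genes that pass are said to be called. Over all 410 genes tested, 53.7% passed it, 17.6% as higher and 36.1% as lower in replicate 2. Log2 ratios of replicate 2 over replicate 1, scaled by TMM, ran from −0.89 for Mirlet7f-1 (95% counting interval −1.09 to −0.69) to 0.37 for Mirlet7c-2 (0.26 to 0.49). Mirlet7f-2 stood at 0.28 (0.24 to 0.32). Of these 6 genes only Mirlet7f-1 had fewer CPM in replicate 2 than in replicate 1. Mir98, a let-7 gene with a single locus, also had fewer (3167 and 2726 CPM). Scaled by total reads, Mirlet7c-2 passed as higher at 1.00, and Mirlet7a-2 turned from −0.24 to 0.38 (0.04 with DESeq2 size factors).

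Single-locus let-7 genes, whose strands occur once, were counted far more often. Mirlet7b, Mirlet7d, Mirlet7e, Mirlet7g, Mirlet7i and Mir98 together had 537088 reads in replicate 1 and 852607 in replicate 2, which is 46.3 and 59.3 times the sum of the 6 multi-locus let-7 genes. The lowest of them in replicate 1 was Mirlet7e with 13202 reads, above the 8256 of Mirlet7f-2. In replicate 2 Mir98, with 8378 reads, was below the 10667 of Mirlet7f-2. Mature strands are of nearly equal length, so no scaling by length was applied to these comparisons.

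Mir128-1 and Mir128-2 were both lower in replicate 2, and in replicate 1 they had the highest counts after Mirlet7f-2. miR-128 is known from brain and skeletal muscle. Mir128-1, in an intron of R3hdm1 (chromosome 1, 128202361 to 128202430, plus strand), had 3180 reads (713 CPM) in replicate 1 and 783 (255 CPM) in replicate 2, a log2 ratio of −2.11 (−2.2 to −2.0). Mir128-2, in an intron of Arpp21 (chromosome 9, 112118636 to 112118711, minus strand), had 1641 reads (368 CPM) and 137 (44.6 CPM), a log2 ratio of −3.66 (−3.93 to −3.42). Scaling by DESeq2 size factors or by total reads kept both calls. The intervals of the 2 ratios do not overlap, so the loci differed by unequal factors between the libraries. The hairpins share the 3p strand, in capitals, and have 5p strands of their own, given with seeds in capitals.
Mir128-1: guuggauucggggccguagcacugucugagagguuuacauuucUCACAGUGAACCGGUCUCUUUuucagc
Mir128-2: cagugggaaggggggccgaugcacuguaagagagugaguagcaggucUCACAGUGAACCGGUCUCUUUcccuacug
mmu-miR-128-1-5p: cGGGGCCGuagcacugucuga
mmu-miR-128-2-5p: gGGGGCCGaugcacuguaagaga

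Mir338, a single-locus microRNA of oligodendrocytes on the same list of nerve markers, was lower in replicate 2 as well, with 1506 and 360 reads. Of the 15 nerve markers 14 are multi-locus genes described here and 6 had no read in either library. The list's summed share was 0.147% in replicate 1 and 0.0481% in replicate 2, with 4 of 8 tested members lower and 2 higher, where 36.1% and 17.6% of all tested genes were. Mir128-1 and Mir128-2 are among the lower members and held 4821 of the list's 6573 reads in replicate 1 and 920 of 1478 in replicate 2. The fall of the sum is therefore largely that of the Mir128 genes and not separate from it. Mir9 and Mir124a, the defining neuronal genes of the list, were at 0. For miR-9 this cannot be read as absence, because both arms are shared by its loci. No hairpin sequence was matched for the Mir124a genes, so their arms were not compared. The part of nerve or muscle content in the Mir128 ratios was not tested.

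The Mir194 genes split between the libraries. miR-194 is known from gut and liver epithelium, where it is transcribed together with miR-192 or miR-215. Mir194-1 (chromosome 1, 185313319 to 185313385) had 2 reads in replicate 1 against 46 in replicate 2, with a log2 ratio of 3.90 (2.50 to 7.52), and was called higher under all 3 scalings. Mir194-2 (chromosome 19, 6264643 to 6264728) had 62 reads and 37, and its log2 ratio of −0.82 (−1.46 to −0.22) was not called. Mir194-1 held 3.12% of the counted Mir194 reads in replicate 1 (0.381 to 10.8%) and 55.4% in replicate 2 (44.1 to 66.3%). The 3p strands that tell the loci apart are shown with seeds in capitals.
mmu-miR-194-1-3p: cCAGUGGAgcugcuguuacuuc
mmu-miR-194-2-3p: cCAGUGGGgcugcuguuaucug

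Of the single-locus neighbours of these genes, Mir215 was called higher as Mir194-1 was. Mir192 and Mir194-2 were both not called, and their ratios had opposite signs. Mir215, 195 bases from Mir194-1, had 12 and 159 reads and was higher at a log2 ratio of 3.54 (2.79 to 4.62). Mir192, 115 bases from Mir194-2, had 57 and 66 reads and stood at 0.12 (−0.41 to 0.66), not called. Of the 5 genes listed as markers of gut and liver epithelium, Mir194-1 and Mir215 were higher and Mir122, the liver microRNA, was lower with 1152 and 269 reads. Their summed share was 0.0288% in replicate 1 and 0.0188% in replicate 2.

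The split of reads between loci does not depend on library scaling. Of the 9 families with at least 10 counted reads in each library, 6 had 95% exact intervals for the share at the locus numbered 1 that did not overlap between the libraries. These were let-7a, with 60.7% at Mirlet7a-1 in replicate 1 and 68.6% in replicate 2, let-7c, with 35.6% and 30.5% at Mirlet7c-1, and let-7f, with 6.56% and 3.03% at Mirlet7f-1. For miR-128 the share at Mir128-1 was 66.0% (64.6 to 67.3%) and 85.1% (82.6 to 87.3%), and for miR-138 that at Mir138-1 was 68.6% (62.1 to 74.6%) and 52.9% (44.2 to 61.3%). The sixth was miR-194. Between the same libraries 53.7% of all tested genes passed the threshold, and the share over other multi-locus families was not computed, so the count of 6 is a description. For miR-7a, miR-218 and miR-219a the intervals overlapped. The intervals cover counting error alone, and no spread between animals of 1 tissue can be had from this pair.

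**Figure D3:**
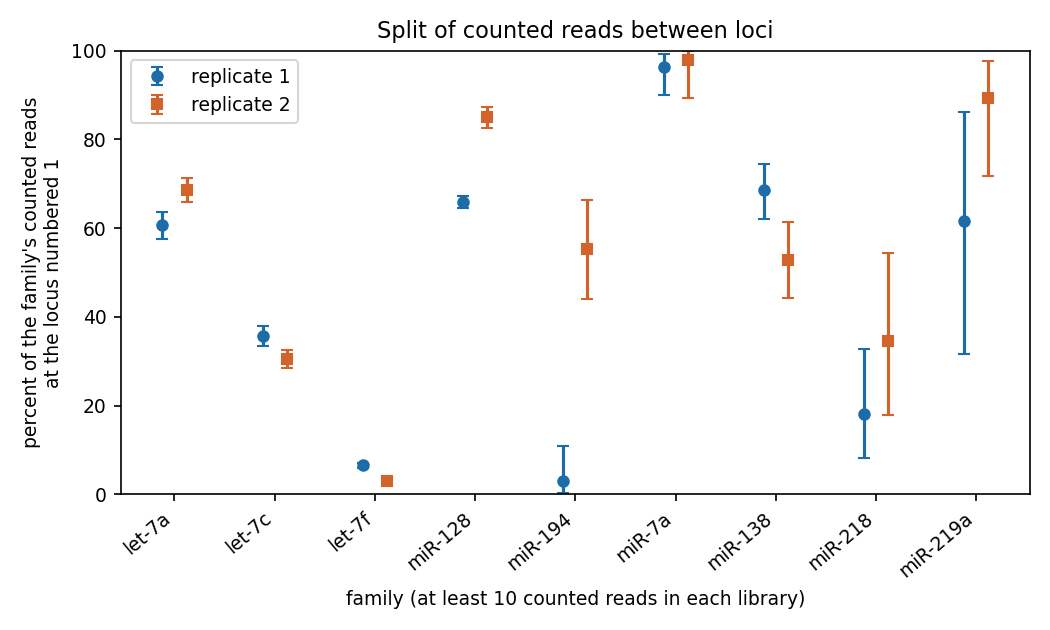
Share of each family's counted reads at the locus numbered 1, in percent, in replicate 1 (circles) and replicate 2 (squares), with 95% exact binomial intervals. The miR-194 share moves from 3.12% to 55.4%, whereas that of miR-7a is 96.4% and 98.0%.

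Mir138, Mir7 and Mir218 genes were counted at low levels in both libraries. Mir138-1 (chromosome 9, 122682876 to 122682974) had 155 and 74 reads, and Mir138-2 (chromosome 8, 94324311 to 94324381) had 71 and 66. Mir138-1 was lower in replicate 2 at a log2 ratio of −1.15 (−1.58 to −0.75), and it lost that call when scaled by DESeq2 size factors (−0.87) or total reads (−0.52). Mir138-2 stood at −0.19 and turned to 0.08 and 0.43 with those scalings. Mir7-1, in an intron of the RNA-binding protein gene Hnrnpk (chromosome 13, 58392779 to 58392886), had 81 reads and 49, and its log2 ratio of −0.80 was not called, while Mir7-2 on chromosome 7 had 3 and 1. Mir7b, the single-locus relative with the same seed, had 13 and 8 reads. Mir218-1 and Mir218-2, in introns of the axon guidance genes Slit2 and Slit3, had 8 and 10 reads and 36 and 19 reads, and neither was called.

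Mir365-2 was lower in replicate 2, and Mir365-1 was not called. Mir365-2 (chromosome 11, 79726400 to 79726511) had 33 reads in replicate 1 and 1 in replicate 2, a log2 ratio of −4.15 (−10.48 to −2.56), and was called under all 3 scalings. Mir365-1 (chromosome 16, 13453840 to 13453926) had 4 and 6, so that it held 10.8% (3.03 to 25.4%) of 37 counted Mir365 reads in replicate 1 and 85.7% (42.1 to 99.6%) of 7 in replicate 2. The log2 ratio of Mir365-1 was 0.41 (−1.58 to 2.76), so its direction is not established. Of Mir193b and Mir193a, the same-strand neighbours listed for the Mir365 genes, only Mir193b was called. Mir193b, 4238 bases from Mir365-1, had 110 and 561 reads and was higher at 2.25 (1.96 to 2.57). Mir193a, 14365 bases from Mir365-2 and so outside the 10 kb window used for neighbours, had 189 and 104 reads and stood at −0.94 (−1.31 to −0.60), not called. miR-365 and miR-193 are known from brown fat.

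The microRNAs of oligodendrocytes and brain that remained were near the limit of counting. Mir219a-1 (chromosome 17, 34024983 to 34025092) had 8 and 25 reads and was higher in replicate 2 at a log2 ratio of 1.45 (0.36 to 2.91), and Mir219a-2 had 5 and 3. Mir129-2 (chromosome 2, 94241364 to 94241453) had 4 and 20 reads and was higher at 1.99 (0.65 to 4.24). Mir129-1 (chromosome 6, 29022619 to 29022691) had 3 and 10 and was called only with total reads, at 1.91. Mir135a-2 had 0 reads and 1, and its single-locus relative Mir135b, with 15 and 2 reads, was lower at −2.49.

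Strand was needed to see 4 of the genes at all. Mirlet7f-1, Mir219a-1, Mir219a-2 and Mir129-2 each overlap an annotated microRNA gene on the opposite strand, and in the unstranded column all 4 had 0 reads in both libraries. In the sense column they had 580, 8, 5 and 4 reads in replicate 1 and 333, 25, 3 and 20 in replicate 2. The opposite genes Mir219b, Mir219c and Mir129b had 1, 0 and 0 sense reads in replicate 1 and 0, 1 and 0 in replicate 2. Mir9-1 also overlaps such a gene, Gm25641.

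In all, 20 of the 30 genes had at least 10 reads over both libraries and were tested, and 7 of them (35.0%) passed the threshold, against 53.7% of all genes tested. Higher in replicate 2 were Mir194-1, Mir219a-1 and Mir129-2, 15.0% of those tested against 17.6%. Lower were Mir128-1, Mir128-2, Mir138-1 and Mir365-2, 20.0% against 36.1%. The median log2 ratio was −0.08, against −0.33 over all genes tested. It changed sign to 0.20 under DESeq2 size factors and 0.55 under total reads, where the median over all genes was −0.07 and 0.26. DESeq2 size factors gave 3 higher and 3 lower calls, and total reads 5 and 3. The untested genes were the 7 without reads and Mir7-2, Mir219a-2 and Mir135a-2. The test compares reads of 2 libraries with counting noise and says nothing of a condition.

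**Figure D4:**
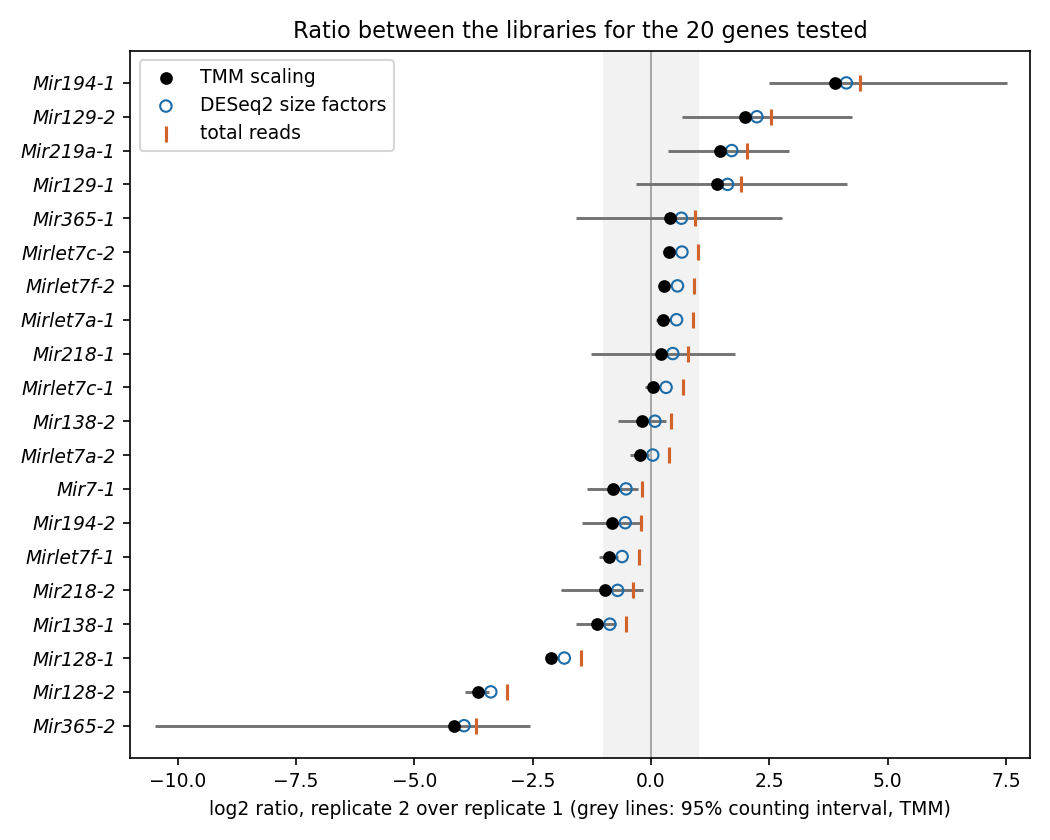
Log2 ratio of replicate 2 over replicate 1 for the 20 tested genes, with TMM scaling (black points, 95% counting intervals as grey lines), DESeq2 size factors (open circles) and total reads (ticks); the grey band marks ratios under 2-fold. Mir194-1 lies highest at 3.90 and Mir365-2 lowest at −4.15, and the let-7 genes lie within the band with TMM scaling.

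The listed single-locus neighbours of the multi-locus let-7 genes had higher counts than the genes beside them in both libraries, except Mir98 at Huwe1 in replicate 2. Mirlet7d, within 2064 bases of Mirlet7a-1, had 66583 and 122232 reads, 108 and 155 times the count of Mirlet7a-1 and 115 and 367 times that of Mirlet7f-1. Mir99a, 656 bases from Mirlet7c-1, had 136 and 144 times its reads, Mirlet7b, 621 bases from Mirlet7c-2, 31.4 and 75.7 times, and Mir100, 5211 bases from Mirlet7a-2, 37.6 and 41.8 times. Mir98, 785 bases from Mirlet7f-2, had 1.71 times its reads in replicate 1 and 0.785 times in replicate 2.

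**Figure D5:**
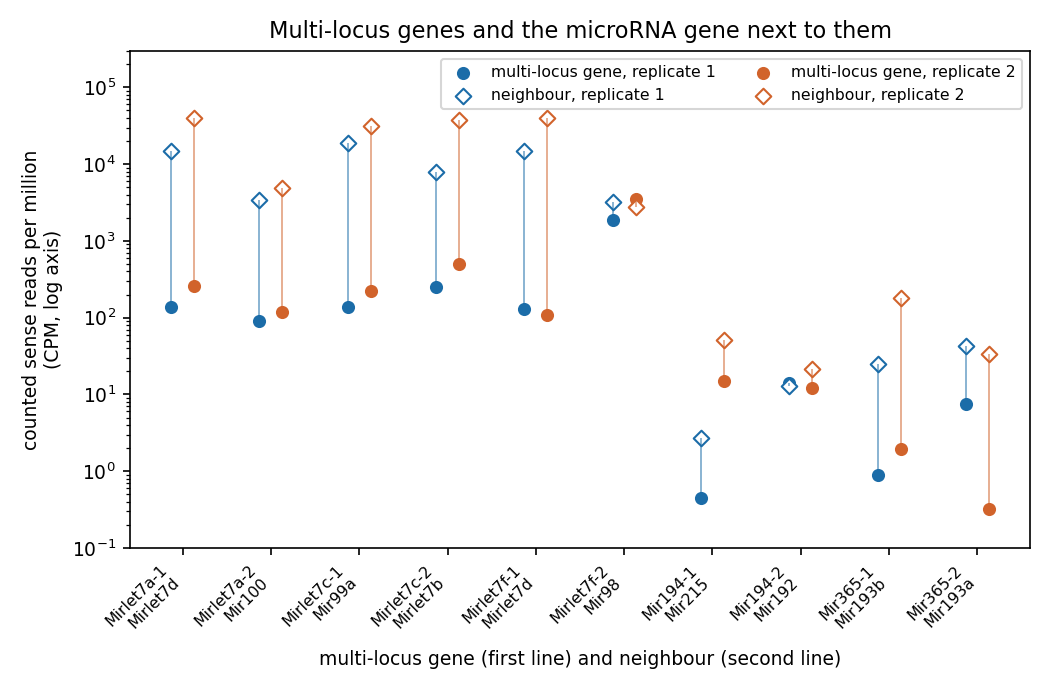
Counted level (CPM, log axis) of 10 multi-locus genes (filled circles) and of the listed microRNA gene next to each on the same strand (open diamonds), in replicate 1 (blue) and replicate 2 (orange). The neighbour lies above the multi-locus gene in both libraries in all pairs but Mirlet7f-2 with Mir98, where it is lower in replicate 2, and Mir194-2 with Mir192, where it is lower in replicate 1.

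The tables do not show whether reads of these genes were lost to unique mapping, since multimapping reads are not split by gene. Counted reads, which 23 of the 30 genes had, do not tell where reads of a shared strand went. A gene with no counted read may also be absent. Mir135a-1 and Mir135a-2 each have an arm of their own. They had 0 and 0 reads and 0 and 1 reads, which do not tell where reads of miR-135a-5p went. How many of the multimapping reads belong to any of the 14 families cannot be read from these tables, and the levels given leave any such reads out.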

How the data were processed

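Small RNA reads were counted per microRNA gene in 2 libraries of 1 group. The authors deposited raw read counts for each library in unstranded, sense and antisense columns, on mm10 with GENCODE M21 per the deposited description files. Aligner, settings and trimming were not given in the sources used here. The 4 summary lines were left out of totals and tests because they are not genes. They held 9.97%, 35.7% and 2.05% of replicate 1 and 8.60%, 45.1% and 3.83% of replicate 2 as unmapped, multimapping and outside microRNA genes, with 0 ambiguous sense reads.

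The sense column was used, with names from GENCODE M21 (2202 of 2202 genes). Log2 ratios have a prior count of 1 and TMM sizes (edgeR 4.0.16, R 4.3.3) from genes with at least 10 reads in total. Each such gene had a two-sided exact binomial test with Benjamini-Hochberg adjustment, and passed at an adjusted p under 0.05 and 2-fold. The 0 limit is 3 counts. The labels name separate animals and biosamples under a shared donor identifier. No molecular identifiers are named, so intervals cover counting error only and not PCR duplication. The test was first tried on simulated data.

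Sequences are from RefSeq (GRCm38.p6). An arm was shared if found whole on the same strand of another listed hairpin; the rest of the genome was not searched. All 30 genes were named, with single-locus relatives and neighbours from lists. Of the listed relatives 4 (Mir9b-1, Mir9b-2, Mir9b-3, Mir124b) had no row. The 30 genes, the lists and the tests were chosen with earlier results of these data known. Alternatives were DESeq2 1.42.0 size factors, total reads, other minimum and prior counts, the unstranded column, each library alone and shorter shared stretches. Python 3.11.15, scipy 1.17.1, numpy 2.4.6 and pandas 2.3.3 were used.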

Additional observations from a re-analysis of the deposited data

How the results depend on the processing

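Scaling moved log2 ratios by 0.28 (DESeq2 size factors) and 0.63 (total reads) from TMM. Of the multi-locus genes, the number called was 7 with TMM, 6 and 8 with those scalings and 4 in the unstranded column, where Mir219a-1 and Mir129-2 had no reads and Mir138-1 fell short of 2-fold. Higher genes made up 42.9% of calls with TMM, 50.0% with DESeq2 and 62.5% with total reads, against 32.7%, 44.1% and 54.0% over all genes. Of the 20 ratios, 2 changed sign with either scaling, Mirlet7a-2 (0.037 and 0.38) and Mir138-2 (0.082 and 0.43); with prior counts of 0.5 and 2 all 20 kept their sign and call. The summed share, a mean of 0.444% over the libraries, was 0.554% in the unstranded column and 0.207% of all reads (0.198% and 0.216%); without Mirlet7f-2, chosen after seeing the data, it was 0.178%. With 1 library left out it ran from 0.379 to 0.509%, and detected genes from 14 to 18. Genes with every arm shared numbered 7 for whole arms on the same strand, and 9 for stretches of 18 or 20 bases on either strand. These settings differ in strand as well as in length. No paired analysis was possible because the series has a single group. Depth limits the genes under 10 reads, whose ratios have wide counting intervals.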
